A study of Mus musculus with 9 samples.

Results

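RNA of the cochlear membranous labyrinth, the soft tissue inside the bony shell of the cochlea, was compared between mice homozygous for a humanized, mutated MPZL2 allele and wild-type mice. Of the 9 libraries of the series, 6 entered this comparison, 3 from each genotype, all taken at postnatal day 28. The controls were Mpzl2 WT. The mutants were hMPZL2Q74X/Q74X, which carry on both chromosomes a humanized gene with the nonsense variant MPZL2 c.220C>T. Neither group was given the base editor vector used elsewhere in the series. The question named by the submitters was which pathways are involved in the cochlear pathology of the variant. The comparison covered every row of the deposited table that holds these libraries, 1411 rows for 1410 gene symbols, and 1348 of them were tested. The sources used here do not give the strain, the sex or the number of animals behind a library, nor which stretch of the mouse gene was replaced by human sequence. The libraries of a group are called biological replicates in the labels, and p-values set the group difference against the spread between those libraries.

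MPZL2 is a cell surface protein of the immunoglobulin superfamily that holds neighbouring epithelial cells together. In the inner ear it is known from supporting cells of the organ of Corti and from the stria vascularis, and recessive loss of MPZL2 in people causes a moderate, progressive hearing loss. The membranous labyrinth joins several tissues. The organ of Corti, with hair cells and supporting cells under the tectorial membrane, turns sound into nerve signals. The stria vascularis secretes the potassium-rich endolymph, the spiral ligament behind it is built of fibrocytes in a collagen matrix, and spiral ganglion neurons with their Schwann cells carry the signal to the brain.

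The values are TPM, the relative abundance of a transcript after correction for its length and the library total. TPM keeps no read count, so the sequencing depth is unknown. The rows summed to between 120756 and 137436 TPM per library, so the table holds a part of each transcriptome. The sources used here do not say how its rows were chosen. The smallest absolute log2 fold change among tested genes was 0.24, so genes with a small difference were absent, and the rows are taken here to have been picked on these samples. Its counts, and groups that do not overlap, are therefore not independent evidence of a direction, and its adjusted p-values are too small. The table cannot test every cell type either. Of the markers looked for, the hair cell list had Ptprq alone, and no gene of the mitochondrial genome, the cytosolic ribosome, keratins, erythroid cells or neutrophils was among the rows.

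Mpzl2, the mutated gene, was at 33.6, 43.9 and 49.0 TPM in WT and at 16.7, 23.2 and 12.5 TPM in homozygous cochlea. The groups did not overlap, and the transcript was still listed in each homozygous library. Its mean was 42.1 ± 7.84 TPM in WT and 17.5 ± 5.42 TPM in homozygous cochlea (SD, n = 3 each), and the log2 fold change was -1.25 (standard error 0.24, limma adjusted p = 0.0139). Without WT library 3 the fold change was -1.13 and the adjusted p 0.0544. Fewer transcripts and fewer reads that match the mouse sequence cannot be told apart for a humanized gene. Mpzl3, which encodes a related protein, was at 3.26, 5.03 and 6.17 TPM in WT and at 7.07, 9.7 and 7.53 TPM in homozygous libraries, and it did not pass (limma adjusted p = 0.0524).

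Across the table, 241 genes rose in homozygous cochlea, 17.9% of those tested, and 451 fell, 33.5%. The threshold throughout was a limma p-value of 0.05 after Benjamini-Hochberg adjustment over the 1348 genes. The median log2 fold change of all tested genes was -0.36, and 620 genes lay above 0 and 728 below. Among genes past the threshold, 50 rose and 90 fell by at least 1 on the log2 scale. The direction of the balance depended on the scaling: median-of-ratios scaling moved the median by 0.14 and gave 465 genes higher and 216 lower. Its factors came from 1345 genes of this same table, which lacks genes with a small difference. They can therefore take up part of the difference between the groups, and neither scaling can be called the right one. The counts also fell whichever library was left out. Without WT library 3 they were 26 higher and 77 lower, without WT library 1 30 and 88, and without WT library 2 52 and 93. Without homozygous library 1 they were 58 and 125, without homozygous library 2 162 and 354, and without homozygous library 3 227 and 384. Leave-one-out fits repeat the test with 1 library removed. In all, 75 genes passed in the fit of the 6 libraries and in each of the 6 leave-one-out fits, 16 of them higher and 59 lower. When the p-values were adjusted as for all 21900 protein-coding genes of the mouse reference, a calculation chosen after seeing the data, 5 genes passed. Those were Col2a1, Col9a1, Cpz and Rarres1, which fell, and the predicted locus Gm27232, which rose.

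**Figure D1:**
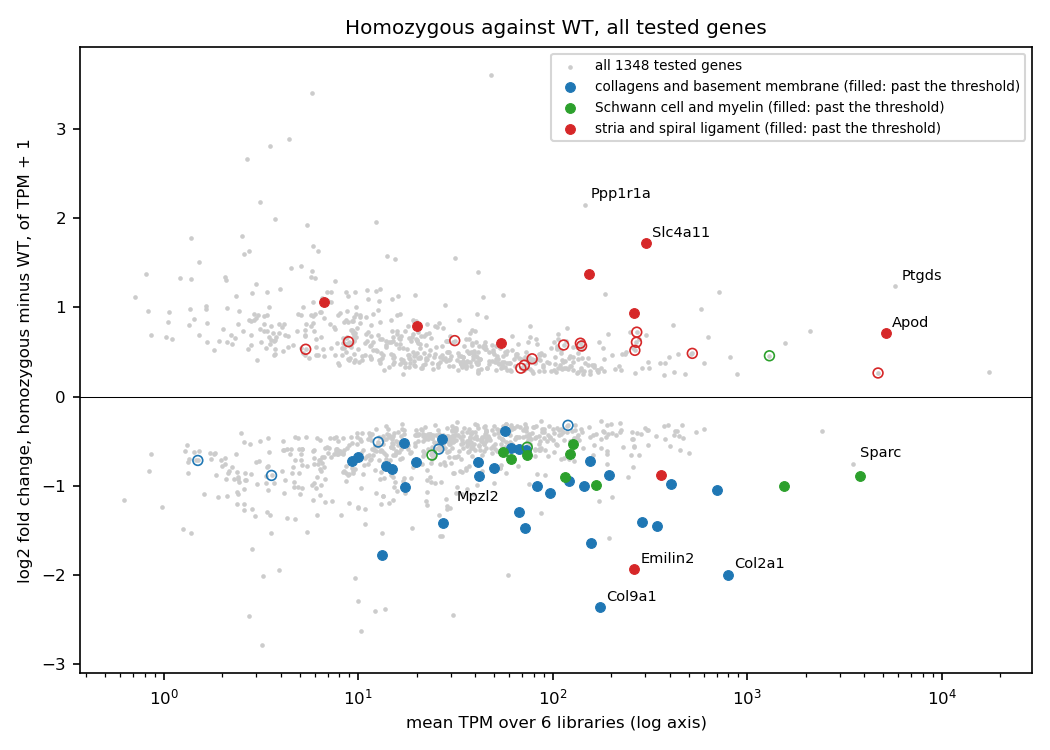
Each point is 1 of the 1348 tested genes, with its mean TPM over the 6 libraries on a log axis and its log2 fold change, homozygous minus WT, of TPM + 1 on the vertical axis. Coloured points are genes of the named lists, filled where they passed the threshold, and the band around 0 is empty because the table holds no gene with an absolute log2 fold change under 0.24.

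Homozygous library 2 stood apart from the other homozygous libraries. Pairs of WT libraries differed with a standard deviation of the log2 difference over genes of 0.40 to 0.45, homozygous libraries 1 and 3 with 0.43, and homozygous library 2 from those 2 with 0.52 and 0.60. It held the most extreme homozygous value for 142 of the 241 higher genes (58.9%) and for 217 of the 451 lower genes (48.1%). Where a count of a gene group differed without it, or under median-of-ratios scaling, that count is given as well. Of all 1348 tested genes 162 were higher and 354 lower without it, and 465 and 216 under median-of-ratios scaling. Counts of gene groups are to be read beside these, and beside 17.9% higher and 33.5% lower with all libraries.

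The fibrillar collagens of cartilage and their partners had the lowest median of all lists. Collagens II, IX and XI form the thin fibrils of hyaline cartilage and of the tectorial membrane, and mutations in several of these chains cause deafness. Of the 7 tested cartilage-type collagen genes 6 fell, with a median log2 fold change of -1.46 against -0.36 for all tested genes. It was 6 of 7 with median-of-ratios scaling and 6 of 7 without homozygous library 2, and 5 passed in each of the 6 leave-one-out fits. In bulk tissue, fewer cells of a type and less RNA per cell cannot be told apart. Together the 7 genes summed to 3140.2 to 4342.4 TPM in the WT libraries and to 1104.3 to 1710.6 TPM in the homozygous libraries.

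Col9a1, the alpha 1 chain of collagen IX, was at 312, 263 and 310 TPM in WT and at 58.7, 61.2 and 50.0 TPM in homozygous libraries. The 3 homozygous libraries lay close together and far below each WT library. Its mean fell 5.21-fold, a log2 fold change of -2.36 (standard error 0.14, limma adjusted p = 9.41e-05), the smallest p of the table. Col9a2, which encodes the alpha 2 chain, was at 291, 190 and 238 TPM in WT and at 82.3, 90.8 and 55.9 TPM in homozygous libraries, without overlap (log2 fold change -1.65, limma adjusted p = 0.00399). Col9a3, the gene of the alpha 3 chain that completes the trimer, went from 502, 308 and 448 TPM to 148, 185 and 133 TPM (log2 fold change -1.41, limma adjusted p = 0.00537). So each gene of the collagen IX trimer fell. In none of the 3 did the groups overlap, but the share of all tested genes without overlap is not given here. Since the rows are taken to have been picked on these samples, that is no separate evidence.

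Col2a1, the single chain of collagen II, was at 1439.5, 1099.5 and 1281 TPM in WT and at 304, 369 and 282 TPM in homozygous libraries. That is a fall of 4.0-fold between means of 1273.3 ± 170 and 318 ± 45.1 TPM (SD, n = 3 each; log2 fold change -2.0, limma adjusted p = 0.000694). Col11a1, a chain of the fibril core of collagen XI, was at 571, 460 and 472 TPM and at 164, 253 and 143 TPM (log2 fold change -1.46, limma adjusted p = 0.00537). Homozygous library 2 was the highest of its group for Col2a1, Col11a1 and Col11a2. Col11a2, the second chain of collagen XI, was at 1077.2, 698 and 1029.3 TPM in WT against 392, 650 and 338 TPM, so that the lowest WT library lay just above homozygous library 2. It passed with all libraries (log2 fold change -1.05, limma adjusted p = 0.0281) and missed the threshold in 3 of the 6 leave-one-out fits. Col27a1, a fibrillar collagen of growing cartilage, was at 133 ± 14.5 and 106 ± 6.52 TPM (SD, n = 3 each) and did not pass (limma adjusted p = 0.0562).

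The promoters of the collagen IX genes that fell furthest are shown because these chains form 1 protein and moved together. Each runs from 250 bases before to 50 bases after an annotated start on the plus strand, taken from RefSeq for GRCm38.p6. The capitals mark GC boxes, GGGCGG or CCGCCC on either strand, the letters known to be read by Sp family factors. The first Col9a1 sequence spans chr1:24177360-24177659, the second chr1:24194953-24195252, and the Col9a2 sequence chr4:121039316-121039615.
Col9a1, upstream start: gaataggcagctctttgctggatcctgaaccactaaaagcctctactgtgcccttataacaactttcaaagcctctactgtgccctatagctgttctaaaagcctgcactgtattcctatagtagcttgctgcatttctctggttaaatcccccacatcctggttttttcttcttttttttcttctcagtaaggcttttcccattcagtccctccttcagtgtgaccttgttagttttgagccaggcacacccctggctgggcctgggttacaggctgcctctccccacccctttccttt
Col9a1, downstream start: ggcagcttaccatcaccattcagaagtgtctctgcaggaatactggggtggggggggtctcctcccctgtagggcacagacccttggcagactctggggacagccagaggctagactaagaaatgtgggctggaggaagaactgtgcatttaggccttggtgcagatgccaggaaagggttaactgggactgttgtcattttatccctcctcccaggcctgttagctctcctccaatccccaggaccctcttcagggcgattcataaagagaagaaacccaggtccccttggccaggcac
Col9a2: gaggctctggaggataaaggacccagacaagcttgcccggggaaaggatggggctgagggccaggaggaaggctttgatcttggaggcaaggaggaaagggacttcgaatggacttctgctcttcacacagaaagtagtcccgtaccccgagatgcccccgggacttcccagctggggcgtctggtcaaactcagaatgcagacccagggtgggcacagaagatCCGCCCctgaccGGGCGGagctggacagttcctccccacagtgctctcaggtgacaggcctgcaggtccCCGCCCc
Both Col9a1 windows held no GC box, with a GC content of 47.3% and 55.7%, and the Col9a2 window held 3, with a GC content of 61.7%. Such a box was in 35.7% of all 32851 mouse promoters of the same length. The letters ACAAAG or ACAATG on either strand, some of the forms of SOX sites, were in none of these 3 windows and in 28.6% of all promoters. Other forms of SOX sites were not counted. A match or its absence describes these letters only. No such sequence was at hand for Col2a1 or Col9a3.

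Interstitial collagen genes fell too. Of 8 tested interstitial collagen genes 8 fell (median log2 fold change -0.85), 6 of them under median-of-ratios scaling, and 3 passed in each leave-one-out fit. Col1a2, a chain of collagen I, the main collagen of bone and ligament, was at 563, 506 and 534 TPM in WT and at 237, 351 and 239 TPM in homozygous libraries (log2 fold change -0.98, limma adjusted p = 0.0095). Col3a1, the chain of collagen III, which runs with collagen I in soft connective tissue, was at 127, 89.5 and 105 TPM and at 33.2, 45.3 and 35.5 TPM (log2 fold change -1.47, limma adjusted p = 0.00325). In both genes homozygous library 2 was the highest of its group and still below each WT library. Col16a1, which associates with fibrils, fell by 1.42 on the log2 scale. Col24a1 overlapped between groups through homozygous library 2, at 48.1 TPM against 46.7 TPM in WT library 2.

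Most basement membrane genes fell. A basement membrane is the thin sheet of collagen IV, laminin, nidogen and perlecan under epithelia and around Schwann cells and capillaries. Of 15 tested genes 13 fell (median log2 fold change -0.81), 11 under median-of-ratios scaling and 14 without homozygous library 2, and 7 passed in each leave-one-out fit. Lamb1 and Lamc1 encode the beta 1 and gamma 1 laminin chains, shared by most laminins. Lamb1 was at 238, 263 and 264 TPM in WT and at 140, 139 and 136 TPM in homozygous libraries (log2 fold change -0.88, limma adjusted p = 0.00399). Lamc1 was at 162, 154 and 166 TPM and at 87.8, 80.9 and 79.3 TPM (log2 fold change -0.95, limma adjusted p = 0.00325). For Lamb1 the homozygous libraries lay within a few TPM of each other, and each lay far below the WT range.

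Col4a1 and Col4a2, whose products form the common collagen IV network, fell by 1.0 and 1.09 on the log2 scale, with adjusted p of 0.00459 and 0.00399 (limma). Col4a3, a chain of the network that is lost in Alport syndrome, which includes hearing loss, went from 24.0, 20.3 and 27.0 TPM to 10.8, 11.9 and 10.8 TPM. Its partner Col4a5 fell by 0.53, and Col4a4, at a log2 fold change of -0.51, did not pass. Nid1, the linker between laminin and collagen IV, was at 104, 116 and 111 TPM in WT and at 63.7, 44.0 and 57.4 TPM in homozygous libraries. Hspg2, the gene of perlecan, fell by 0.60, and Dag1, the gene of the laminin receptor dystroglycan, fell by 0.58. The laminin-binding integrin gene Itga6 fell by 0.34 and missed the threshold in 5 of the 6 leave-one-out fits.

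**Figure D2:**
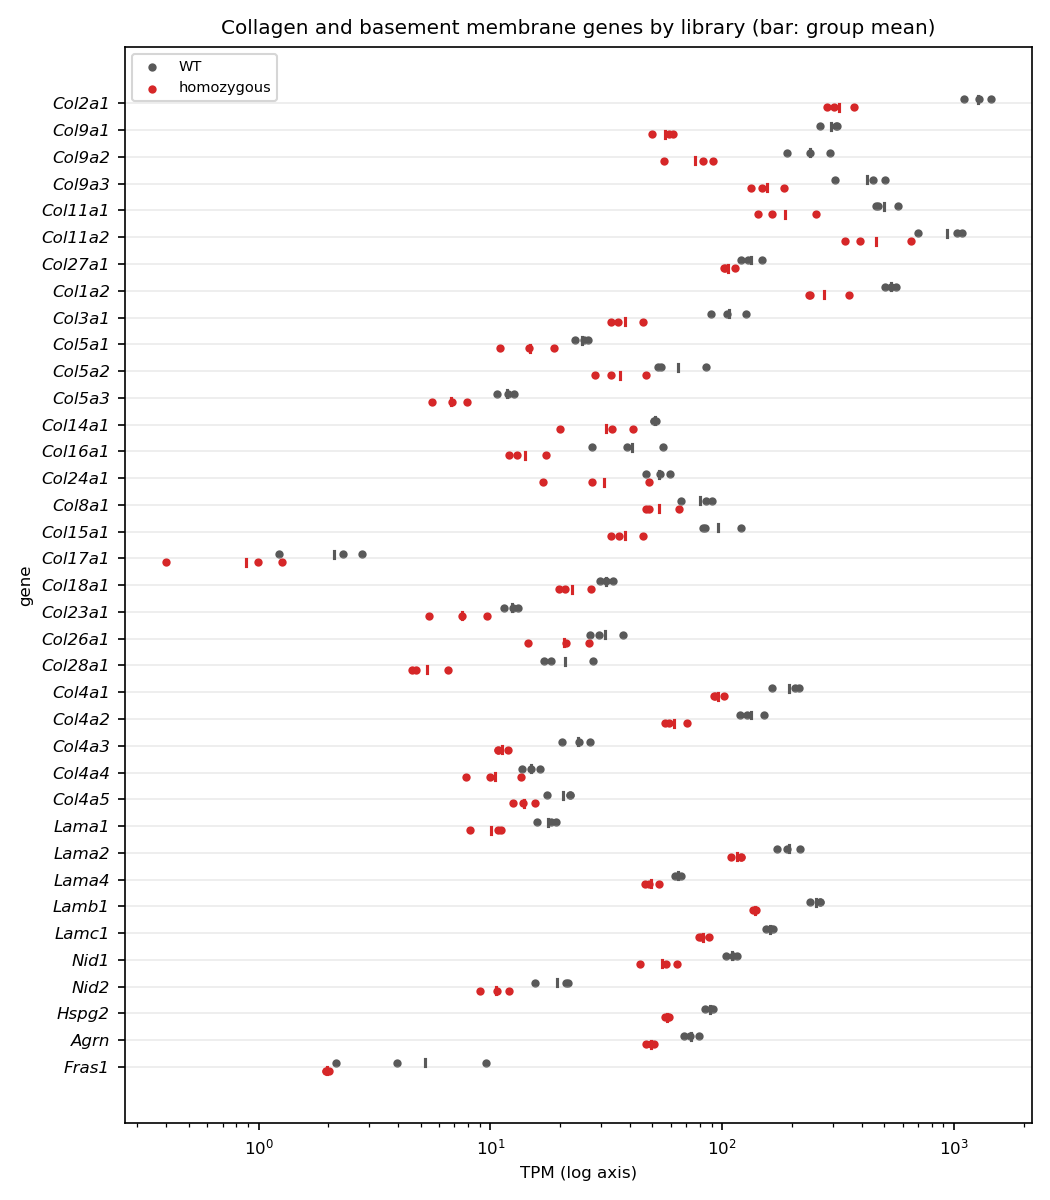
TPM of each collagen and basement membrane gene in each library, on a log axis, with WT in grey and homozygous in red, and a short bar at each group mean. For most genes the 3 homozygous points lie left of the 3 WT points, as for Lamb1 at 136 to 140 against 238 to 264 TPM, and Col24a1 is an example where the groups overlap.

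Genes that shape or crosslink the matrix passed in part. Lox, the lysyl oxidase that crosslinks collagen and elastin, was at 46.7, 46.7 and 45.2 TPM in WT and at 25.4, 28 and 24.8 TPM in homozygous libraries (log2 fold change -0.81, limma adjusted p = 0.00769). Of 10 tested genes of collagen folding, processing and crosslinking 5 fell, 4 under median-of-ratios scaling, among them Plod1, a lysyl hydroxylase, and Pcolce2 and Adamts2, which act on procollagen ends. The prolyl hydroxylase gene P3h2 was the 1 gene of this list above 0 and did not pass, at 4.69, 16.6 and 13.7 TPM in WT and 10.6, 29.3 and 43.2 TPM in homozygous libraries. Of 10 matrix proteases and inhibitors 9 fell (median -0.61), 6 under median-of-ratios scaling and 4 without homozygous library 2, and none passed in each leave-one-out fit. Mmp2, a gelatinase, was at 83.3 ± 8.26 and 49.4 ± 15.6 TPM (SD, n = 3 each).

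Of 11 elastic fibre and matricellular genes 8 fell and 1 rose. Under median-of-ratios scaling, and likewise without homozygous library 2, 6 fell and 1 rose. Emilin2, an elastic fibre glycoprotein also used as a fibrocyte marker, was at 394, 480 and 352 TPM in WT and at 101, 61.6 and 186 TPM in homozygous libraries (log2 fold change -1.94, limma adjusted p = 0.0095). Sparc, which binds collagen and is among the most abundant transcripts of the table, was at 4417.8 ± 222 and 2629.3 ± 264 TPM (SD, n = 3 each; log2 fold change -0.75). Ccn4, a Wnt-induced matricellular gene, fell by 1.26 and Fbn1, the gene of fibrillin 1, by 0.66. The gene that rose was Smoc2, a secreted calcium-binding protein gene, from 3.65 ± 0.39 to 7.2 ± 0.80 TPM (SD, n = 3 each, with a limma adjusted p of 0.0261). Sparc missed the threshold in 4 of the 6 leave-one-out fits, Smoc2 in 3, and Emilin2 passed in each.

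Of 12 tested proteoglycan genes 5 fell, beside 33.5% of all tested genes, and the others did not pass. Under median-of-ratios scaling 4 fell and 1 rose, Prelp (limma adjusted p = 0.0404). Without homozygous library 2 the counts were also 4 and 1, but the gene that rose was Prg4 (limma adjusted p = 0.0113). Hapln1, which links hyaluronan to aggrecan, fell by 0.97 and Gpc3, a glypican, by 0.91. The chondroadherin genes Chad and Chadl fell by 1.06 and fell by 1.25. Acan, the gene of aggrecan itself, was at 65.6, 51.6 and 42.9 TPM in WT and at 48.6, 30.8 and 33.8 TPM in homozygous libraries, which overlap, and did not pass. Among noncollagenous cartilage genes 3 of 7 fell, beside the same 33.5%. Without homozygous library 2 it was 4, while with median-of-ratios scaling 2 fell and 1 rose. Otor, the gene of otoraplin, a secreted protein of the otic capsule and spiral ligament, was at 487, 441 and 476 TPM in WT and at 233, 276 and 256 TPM in homozygous libraries (log2 fold change -0.88, limma adjusted p = 0.00537). Cnmd, a cartilage gene that blocks vessel growth, fell by 0.55. Sox9, the transcription factor known to drive Col2a1 in cartilage, lay above 0 and did not pass. Its level was 67.4 ± 7.09 TPM in WT against 90.5 ± 16.9 TPM in homozygous cochlea (SD, n = 3 each; log2 fold change 0.41, limma adjusted p = 0.0571).

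Of 4 tested genes of acellular gels of the inner ear 3 fell, 2 under median-of-ratios scaling and 1 without homozygous library 2. The tectorial membrane covers the hair cells of the cochlea, and otoconia are the mineral grains of the vestibular organs. Oc90, the main otoconial protein gene, was at 12.9, 36.4 and 22.4 TPM in WT and at 3.97, 2.17 and 4.38 TPM in homozygous libraries (log2 fold change -2.39, limma adjusted p = 0.00639). The WT libraries spread widely, and each was above each homozygous library. Tectb, the gene of beta-tectorin of the tectorial membrane, was at 17.8, 51.9 and 54.7 TPM and at 20.3, 8.88 and 9.25 TPM, so that WT library 1 lay below homozygous library 1. It passed (log2 fold change -1.56, limma adjusted p = 0.0368) and missed the threshold in 4 of the 6 leave-one-out fits. In the fit without homozygous library 2 its adjusted p was 0.0608. Otop1, a proton channel needed for otoconia, fell by 0.70 but did not pass without homozygous library 2 (limma adjusted p = 0.0643), and Otol1, an otoconial scaffold gene, overlapped between groups and did not pass.

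Bone genes could enter with fragments of the otic capsule, and of 4 tested 2 fell and 1 rose, or 3 and 1 without homozygous library 2. Dmp1, a matrix gene of osteocytes, was at 127, 115 and 127 TPM in WT and at 47.3, 73.0 and 34.4 TPM in homozygous libraries (log2 fold change -1.31, limma adjusted p = 0.0116). Ibsp, the gene of bone sialoprotein, was at 240, 232 and 381 TPM and at 62.6, 183 and 67.0 TPM (log2 fold change -1.59, limma adjusted p = 0.0261) and missed the threshold in 4 of the 6 leave-one-out fits. Phex, also of osteocytes, was at 48.0, 42.1 and 39 TPM and at 16.9, 42.0 and 18.0 TPM. In these 3 genes homozygous library 2 was the highest of its group, and it was within the WT range for Phex. Without that library Phex passed too (log2 fold change -1.25, limma adjusted p = 0.00324). Spp1, the gene of osteopontin, made in bone but also in the stria, rose from 1541.1 ± 64 to 2652.1 ± 821 TPM (SD, n = 3 each, with a limma adjusted p of 0.0418) and missed the threshold in 4 of the 6 leave-one-out fits. The 4 bone genes summed to 1858.7 to 2139.2 TPM in WT and 2068.2 to 3851.3 TPM in homozygous libraries, most of it Spp1, and none was listed at 0. The part of bone in the fall of the collagens was not tested.

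Most Schwann cell and neuron genes lay below 0, and the medians of both lists were lowest in homozygous library 2. Of 12 tested Schwann cell and myelin genes 9 fell (median log2 fold change -0.66), 7 under median-of-ratios scaling and 9 without homozygous library 2. Pmp22, a major gene of peripheral myelin, was at 1946.9, 2170.1 and 2006.2 TPM in WT and at 1192.7, 674 and 1322.3 TPM in homozygous libraries (log2 fold change -1.0, limma adjusted p = 0.0281). The WT libraries were within a narrow range, and homozygous library 2 had the lowest value. Prx, the gene of periaxin, which stabilises thick myelin sheaths, was at 240, 219 and 209 TPM and at 123, 86.6 and 128 TPM and was the 1 myelin gene to pass in each leave-one-out fit. Pmp22 missed the threshold in 4 of those 6 fits. S100b, which Schwann cells share with other glia and with supporting cells, was at 1290.8, 2285.4 and 1039.2 TPM in homozygous libraries against 1068.7 ± 185 TPM in WT (SD, n = 3) and did not pass.

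Col28a1, a collagen of the Schwann cell surface, fell further than the myelin genes, from 18.3, 17 and 27.8 TPM to 6.58, 4.8 and 4.61 TPM (log2 fold change -1.78, limma adjusted p = 0.00443). Tubulin gene Tubb2a and the secreted gene Emid1 were likewise among those that passed in each leave-one-out fit, with log2 fold changes of -0.70 and -1.17. The connexin genes Gjc3, of glia, and Gjd2, of neurons, fell by 0.53 and 1.09, and Gja4, of arteries, by 0.87. Gjb2, the connexin 26 gene of supporting cells and fibrocytes and the most frequent deafness gene, was at 347, 430 and 496 TPM in WT and at 503, 837 and 476 TPM in homozygous libraries and did not pass.

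Of 8 tested genes of spiral ganglion neurons and axons 6 fell (median -0.58), 4 without homozygous library 2 and 1 under median-of-ratios scaling. Nefl, the light neurofilament gene, was at 701, 550 and 568 TPM in WT and at 472, 273 and 453 TPM in homozygous libraries (log2 fold change -0.64, limma adjusted p = 0.0477). Syp, of synaptic vesicles, was at 308, 245 and 269 TPM and at 195, 145 and 218 TPM (log2 fold change -0.57, limma adjusted p = 0.0408). Slc17a7, the vesicular glutamate transporter of the ganglion, fell by 0.49, and Ina, an intermediate filament gene, by 0.70. In Nefl and Syp homozygous library 2 was again the lowest. Without it the fold changes were -0.38 for Nefl and -0.40 for Syp, so the size of the neuronal fall rested on that library, and none of the 6 genes passed in each leave-one-out fit.

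**Figure D3:**
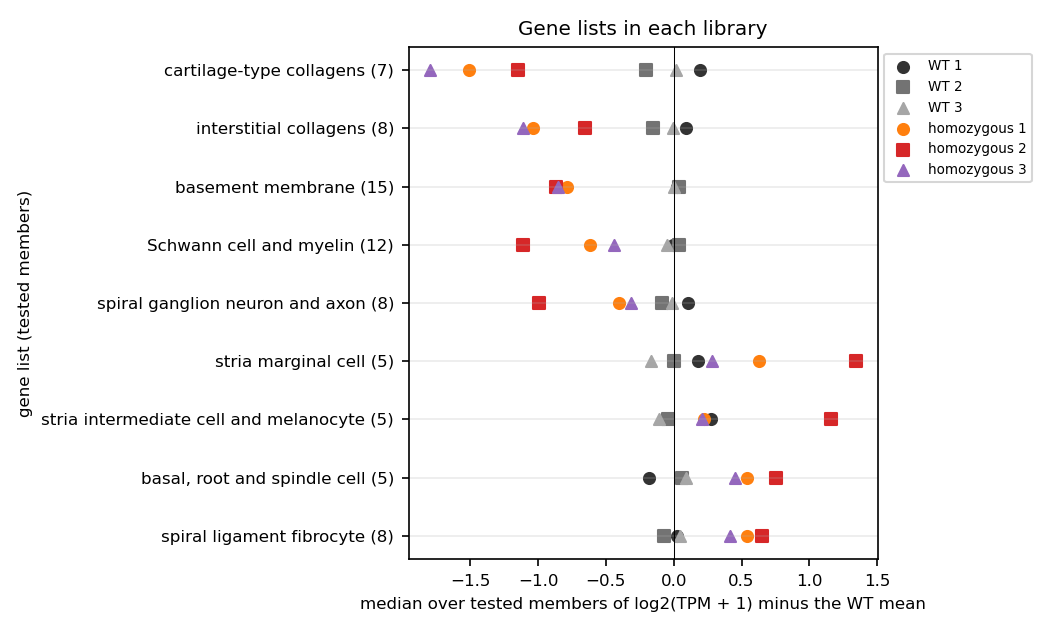
For each library, the median over the tested members of a list of log2(TPM + 1) minus the WT mean is plotted, with 1 marker per library. Homozygous library 2, the red square, is the least lowered for cartilage-type collagens (-1.15, against -1.51 and -1.80), the most lowered for Schwann cell and neuron lists, and the highest for the lists of stria and spiral ligament.

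The lateral wall is the stria vascularis with the spiral ligament. The tested genes of marginal, intermediate and of basal, root and spindle cells lay above 0, whereas the fibrocyte genes split. Of 5 tested marginal cell genes, the stria's epithelial layer facing the endolymph, 3 rose (median log2 fold change 0.79), 4 under median-of-ratios scaling and 1 without homozygous library 2. Lrp2, the endocytic receptor megalin of marginal cells, was at 183, 180 and 152 TPM in WT and at 265, 553 and 244 TPM in homozygous libraries (log2 fold change 0.94, limma adjusted p = 0.04). Without homozygous library 2 it still passed, at 0.57 (limma adjusted p = 0.0169), but it missed the threshold in 4 of the other leave-one-out fits. Atp13a5, a P-type ATPase gene, was at 15.3, 15.1 and 12.0 TPM and at 24.3, 37.2 and 17.2 TPM. It passed with all libraries and not without homozygous library 2 (limma adjusted p = 0.0721). Slc12a2, the cotransporter that loads potassium into marginal cells, was at 428 ± 48.6 and 619 ± 210 TPM (SD, n = 3 each) and did not pass.

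Of 5 tested genes of intermediate cells, the pigment cells of the stria, 0 passed limma, 2 had an unadjusted p under 0.05, and 4 passed as higher under median-of-ratios scaling. Their median was 0.62, but by library it was 0.22 and 0.21 in homozygous libraries 1 and 3, 1.16 in homozygous library 2 and 0.28 in WT library 1. Slc45a2, a pigment granule transporter gene, was at 7.24, 20.9 and 6.56 TPM in the homozygous libraries against 7.77, 5.44 and 5.7 TPM in WT, so 1 library carried its mean. Of 5 genes of basal, root and spindle cells 1 rose, Sox8, a SOXE transcription factor gene, by 0.60, and 4 rose under median-of-ratios scaling. Cldn11, which seals the basal cell layer, was at 80.2, 157 and 109 TPM in WT and at 157, 188 and 152 TPM in homozygous libraries and did not pass.

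Of 8 tested fibrocyte genes of the spiral ligament 3 rose and 2 fell, against 5 and 2 under median-of-ratios scaling. Slc4a11, a transporter of fibrocytes whose loss causes corneal dystrophy with deafness, was at 138, 84.1 and 170 TPM in WT and at 316, 816 and 280 TPM in homozygous libraries (log2 fold change 1.72, limma adjusted p = 0.0241). Slc4a10, a sodium-driven bicarbonate transporter of the same family, was at 94.7, 63.9 and 91.1 TPM and at 209, 318 and 146 TPM (log2 fold change 1.37, limma adjusted p = 0.0154). Homozygous library 2 was highest in both. Without it the fold changes were 1.24 and 1.08, both past the threshold. Slc4a10 passed in each leave-one-out fit, and Slc4a11 missed the threshold in 2. Apod, the gene of apolipoprotein D, rose by 0.71 and missed the threshold in 5 of those 6 fits. Emilin2 and Otor, also on the fibrocyte list, fell as given with the matrix genes. Coch, the gene of cochlin, the most abundant protein of the ligament's matrix, was at 4270.5 ± 197 TPM in WT against 5160.5 ± 712 TPM in homozygous cochlea (SD, n = 3 each) and did not pass (log2 fold change 0.26, limma adjusted p = 0.26).

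**Figure D4:**
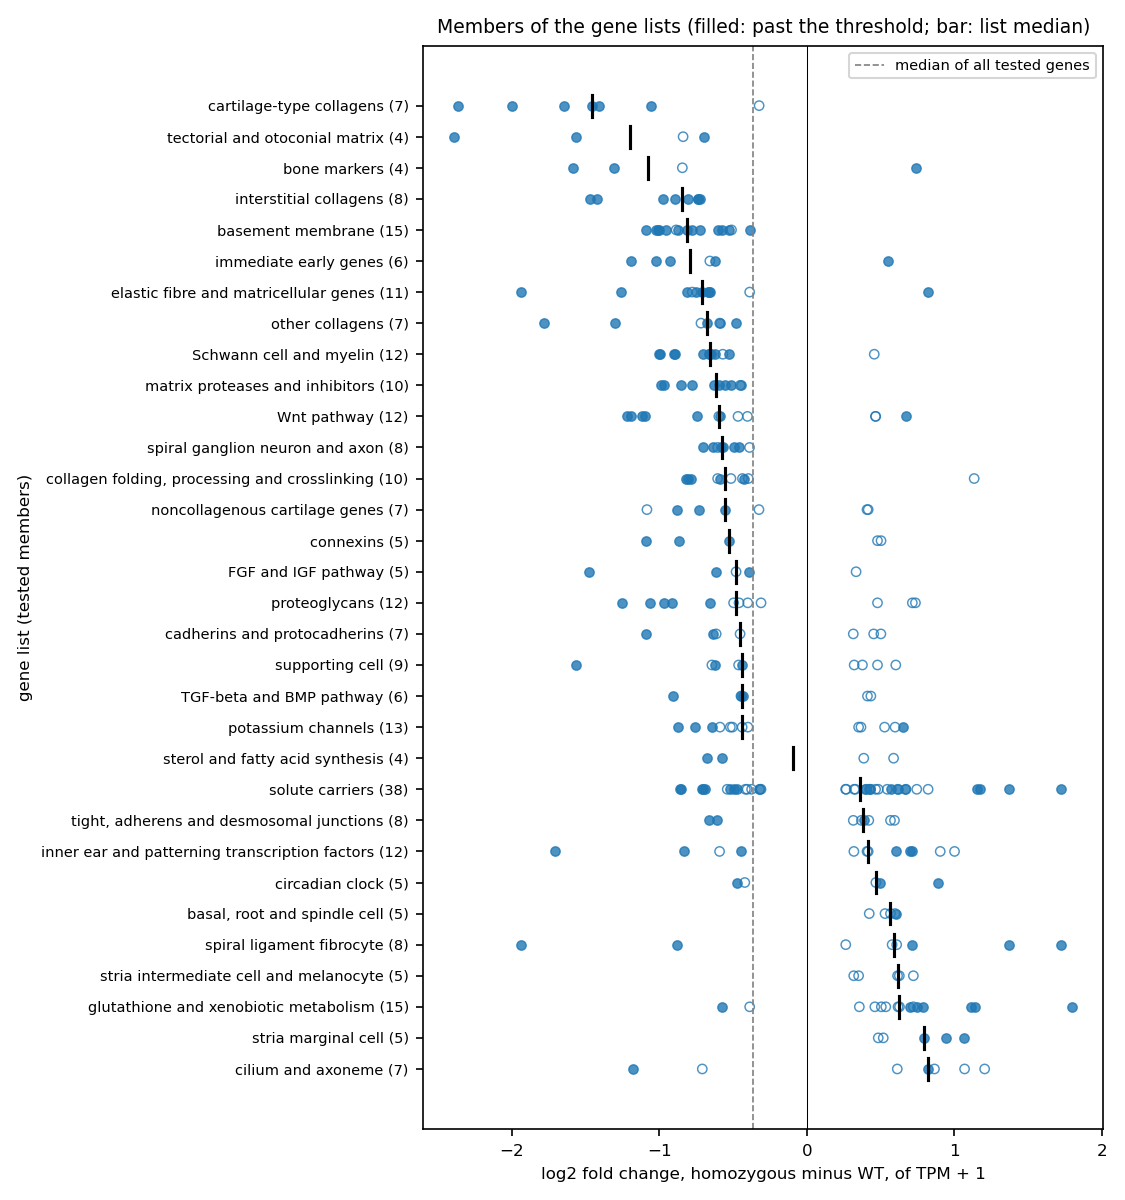
Log2 fold changes, homozygous minus WT, of TPM + 1 for the tested members of each list, filled where they passed the threshold, with a bar at the list median and a dashed line at the median of all tested genes, -0.36. Cartilage-type collagens lie furthest left, at a median of -1.46, and marginal cell, glutathione and fibrocyte lists have medians of 0.79, 0.63 and 0.59.

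Markers of the sensory epithelium were few. Ptprq, a stereocilia shaft gene of hair cells, was the single gene of the hair cell list in the table. Genes of other lists may be made by hair cells too. Ptprq was at 8.24, 12.7 and 10.3 TPM in WT and at 4.51, 6.44 and 8.03 TPM in homozygous libraries. It did not pass (log2 fold change -0.65, limma adjusted p = 0.0546). Of 9 supporting cell genes 3 fell, which is near the 33.5% of all tested genes. Those were Tectb, named above, Hey1, a Notch target, from 19.9 ± 2.17 to 12.5 ± 0.27 TPM (SD, n = 3 each), and Cd9, a tetraspanin gene, by 0.44. Under median-of-ratios scaling 2 were lower and 2 higher, and 2 were lower without homozygous library 2. Of 8 genes of tight, adherens and desmosomal junctions, which hold epithelial cells together, 2 fell and 1 rose. For all tested genes the shares were 33.5% and 17.9%. Cldn19, a claudin that Schwann cells also use, fell by 0.66 and Cldn12 by 0.61, and Patj, a scaffold of tight junctions, rose by 0.39. Under median-of-ratios scaling 1 was lower and 3 higher, and 2 were lower and 0 higher by limma without homozygous library 2.

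Most genes of inherited hearing loss that fell were collagen genes. Of 25 tested genes of inherited hearing loss 11 fell and 2 rose, beside 33.5% and 17.9% of all tested genes. The counts were 9 and 9 under median-of-ratios scaling and 12 and 2 without homozygous library 2. Collagen genes were 8 of the 11 that fell, 6 of the cartilage type and Col4a3 and Col4a5 of basement membranes. The others were Mpzl2, Tmprss5, a transmembrane protease gene, and Twnk, the mitochondrial helicase gene, with fold changes of -0.92 and -0.52 for the last pair. Lrp2 rose as given above, and Cd164, a sialomucin gene, rose by 0.39.

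Several secreted regulators of Wnt signalling fell. Wnt proteins bind Frizzled receptors, and secreted antagonists such as SFRP and WIF proteins hold them off. Of 12 tested genes of the pathway 6 fell and 1 rose, against 5 and 1 under median-of-ratios scaling and 6 and 0 by limma without homozygous library 2, and 3 passed in each leave-one-out fit. Those 3 were inhibitors. Apcdd1, a membrane inhibitor, was at 58.5, 51.0 and 51.9 TPM in WT and at 25.4, 24.5 and 24.1 TPM in homozygous libraries (log2 fold change -1.09, limma adjusted p = 0.00325). Sfrp5 was at 28.7, 38.1 and 29.7 TPM and at 15, 12.3 and 12.4 TPM, and Wif1 at 13.4, 12.3 and 12.8 TPM and at 4.23, 6.33 and 4.81 TPM. In each of the 3 the homozygous libraries lay within a few TPM of each other and well below WT. Rspo1, which in contrast strengthens Wnt signals, fell by 1.12. The receptor gene Fzd2 rose from 3.92 ± 1.07 to 6.74 ± 0.47 TPM (SD, n = 3 each) and missed the threshold in each of the 6 leave-one-out fits. Sostdc1, a secreted antagonist of BMP and Wnt signals outside that list, fell by 0.86 and passed in each of those fits.

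Of 5 tested genes of the FGF and IGF pathway 3 fell, while 1 fell and 1 rose under median-of-ratios scaling. H19, an imprinted noncoding RNA of growing tissue, was at 28.5, 22.3 and 34.3 TPM in WT and at 11.6, 10.3 and 6.97 TPM in homozygous libraries (log2 fold change -1.47, limma adjusted p = 0.00719). Igfbp5, which binds insulin-like growth factors, fell by 0.39. Of 6 genes of the TGF-beta and BMP pathway 3 fell, among them Bmp8a by 0.91, but 0 of the 6 were lower by limma under median-of-ratios scaling, where 1 was higher. Of 6 immediate early genes, which neurons and other cells switch on within minutes of a stimulus, 4 fell and 1 rose. It was 2 and 1 with median-of-ratios scaling, and 3 and 0 by limma without homozygous library 2. Egr1 was at 18.3, 28.1 and 14.7 TPM in WT and at 4.4, 11.8 and 9.7 TPM in homozygous libraries, and Nr4a1 at 19, 30.7 and 13.3 TPM and at 6.12, 13.2 and 9.74 TPM. Both were without overlap but with wide spread in WT, and Egr1 missed the threshold in 4 and Nr4a1 in 5 of the 6 leave-one-out fits. Jund, of the Jun family, rose by 0.55.

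Enzymes of glutathione and foreign compounds, which protect cells from reactive molecules, mostly lay above 0. Of 15 tested genes 6 rose and 1 fell (median log2 fold change 0.63), and 6 rose and 0 fell by limma without homozygous library 2. Under median-of-ratios scaling 13 rose, where 465 of all 1348 tested genes were higher. Gpx3, the secreted glutathione peroxidase, was at 29.4, 40.5 and 31.8 TPM in WT and at 53.5, 102 and 77.7 TPM in homozygous libraries (log2 fold change 1.14, limma adjusted p = 0.0165). Gstm1, a glutathione transferase, was at 14.4, 16.3 and 25.5 TPM and at 34.2, 32.7 and 29.3 TPM (log2 fold change 0.78, limma adjusted p = 0.0347). Nqo1, a quinone reductase, and Cyp1b1, a cytochrome P450, rose by 0.75 and 0.70. Gstm6 and Gstm1 belong to a family of close copies, and how reads were shared among them is uncertain. No member passed in each leave-one-out fit, Gpx3 missing the threshold in 2 and Gstm1 in 3. Homozygous library 2 was the highest for Gpx3, Nqo1 and Cyp1b1 and not for Gstm1.

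Of 38 tested solute carrier genes 9 rose and 9 fell, against 17 and 1 under median-of-ratios scaling and 6 and 6 without homozygous library 2, so their balance depended on the scaling. Slc22a4, which carries ergothioneine, was at 4.45, 3.57 and 4.05 TPM in WT and at 9.04, 14.3 and 8.37 TPM in homozygous libraries (log2 fold change 1.17, limma adjusted p = 0.0157). Slc5a3, the inositol transporter, was at 115, 97.6 and 119 TPM and at 205, 412 and 176 TPM (log2 fold change 1.15, limma adjusted p = 0.0266). Neither overlapped between groups, and Slc22a4 missed the threshold in 2 and Slc5a3 in 3 of the 6 leave-one-out fits. The 9 that fell include the antisense transcript Slc36a1os, whose reads may not be separable from those of its partner.

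The most abundant transcript that rose was Ptgds, the prostaglandin D synthase gene, at 2925, 3292.3 and 3902.8 TPM in WT and 8517.5, 10479.3 and 5519 TPM in homozygous libraries (log2 fold change 1.24, limma adjusted p = 0.0233). The groups did not overlap, but it missed the threshold in 4 of the 6 leave-one-out fits. Trf, the gene of transferrin, rose by 0.45 and missed the threshold in 5. Ppp1r1a, which inhibits a protein phosphatase, rose furthest among genes with ordinary symbols after the histone genes named below. It was at 49.3, 46.0 and 59.7 TPM in WT and at 242, 320 and 160 TPM in homozygous libraries, a rise of 4.66-fold (log2 fold change 2.15, limma adjusted p = 0.0031). Aass, the first enzyme of lysine breakdown, was at 15, 12.6 and 18.3 TPM and at 41.0, 65.2 and 37.1 TPM (log2 fold change 1.55, limma adjusted p = 0.00639). Hspb1, the small heat shock protein gene, was at 25.7, 26.6 and 29.0 TPM and at 57.2, 73.6 and 51.1 TPM (log2 fold change 1.12, limma adjusted p = 0.00544). These 3 genes and Slc4a10 passed in each of the 14 planned fits, as did the predicted loci Gm16310, Gm13833 and Gm5820. They made up the 7 higher genes among 58 that did so. Those fits include the filter of 5 TPM, so genes below it could not be among the 58. H2ac23, Mgl2 and Gm27232, for example, passed in each leave-one-out fit and are not among them.

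Among the other large rises, Mgl2, a lectin gene of macrophages and dendritic cells, was at 0.24, 0.16 and 0.49 TPM in WT and at 2.49, 3.95 and 1.85 TPM in homozygous libraries (log2 fold change 1.51, limma adjusted p = 0.0104). Cd163, the other gene of the macrophage list in the table, overlapped between groups and did not pass. Ighm, the heavy chain gene of B cell immunoglobulin, fell by 0.99. Ccr6, a chemokine receptor gene, rose by 1.63 from a WT mean of 0.75 TPM and missed the threshold in 4 of the 6 leave-one-out fits. Oas1a, an interferon target, rose by 0.84, while Ifi27l2a was at 10.7, 77.8 and 35.5 TPM in homozygous libraries against 14.9 ± 1.14 TPM in WT (SD, n = 3) and did not pass. Nudt8, a nudix hydrolase gene, had a listed value of 0 in each WT library and of 2.22, 1.19 and 1.48 TPM in homozygous cochlea. The histone genes H2ac19 and H2ac23 had the largest rises of genes with ordinary symbols. H2ac19 was at 14.3, 15.5 and 0 TPM in WT and at 111, 114 and 34.2 TPM in homozygous libraries. Both belong to a cluster of near-identical copies, so their values are uncertain.

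Among the other genes that fell, Rarres1, a retinoid-responsive carboxypeptidase inhibitor gene, was at 49.2, 56.7 and 50.6 TPM in WT and at 5.67, 12.5 and 9.2 TPM in homozygous libraries, a fall of 5.71-fold (log2 fold change -2.45, limma adjusted p = 0.00212). Cpz, a carboxypeptidase gene with a frizzled-like domain, was at 18.4, 23.3 and 21.9 TPM and at 4.44, 2.25 and 3.06 TPM, a fall of 6.51-fold (log2 fold change -2.41, limma adjusted p = 0.00188). Cpxm1, of the same carboxypeptidase family, fell by 1.15. Serpinf1, which encodes a secreted inhibitor of vessel growth, was at 277, 252 and 296 TPM and at 167, 98.4 and 121 TPM (log2 fold change -1.12, limma adjusted p = 0.0085). Gata2, a transcription factor gene of the developing inner ear, fell by 0.83, and Dio2, which activates thyroid hormone, went from 49.8, 42.4 and 39.2 TPM to 20.6, 20.5 and 22.1 TPM. These 6 genes passed in each of the 14 planned fits, in which 51 genes fell. Helt, a transcription factor gene, fell by 1.71 from a WT mean of 4.89 TPM, and Gpr132, a receptor gene, was at 0, 2.37 and 0.13 TPM in homozygous libraries against 6.95, 2.84 and 7.13 TPM in WT.

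The genes around the mutated locus were read as well. Of 114 protein-coding genes within 5 megabases of Mpzl2 on chromosome 9 in the GRCm38 reference, 11 were in the table, 9.65%, against 5.72% of all protein-coding genes, and 2 noncoding genes were there as well. Of the 13, 3 rose and 5 fell, Mpzl2 among those that fell, beside 17.9% and 33.5% of all tested genes. The counts were 7 and 2 under median-of-ratios scaling and 2 and 5 without homozygous library 2. In reference order Mpzl2, Mpzl3, Jaml and the noncoding Gm10684 are consecutive, and all 4 were in the table. Jaml, a junctional adhesion molecule gene, was at 19.7, 12.8 and 17.5 TPM in WT and at 29.8, 29.3 and 22.2 TPM in homozygous libraries (log2 fold change 0.68, limma adjusted p = 0.0405). Gm10684 was at 1.63, 2.84 and 0.75 TPM and at 6.31, 2.93 and 6.08 TPM (log2 fold change 1.18, limma adjusted p = 0.0405). So the 3 genes next to Mpzl2 on that side lay above 0, as did 620 of 1348 tested genes, and Mpzl2 lay below. In none of the 3 did the groups overlap, nor did they in Arhgef12, further away, which did not pass (limma adjusted p = 0.0607). For Gm10684 the nearest values were 2.84 TPM in WT and 2.93 TPM in homozygous cochlea. The share of all tested genes without overlap is not given here, so a pattern particular to the locus is not claimed. Jaml missed the threshold in 5 of the 6 leave-one-out fits and Gm10684 in 4. Usp2, further away, rose by 0.56, and Phldb1 and Tmprss5 fell by 0.37 and 0.92.

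**Figure D5:**
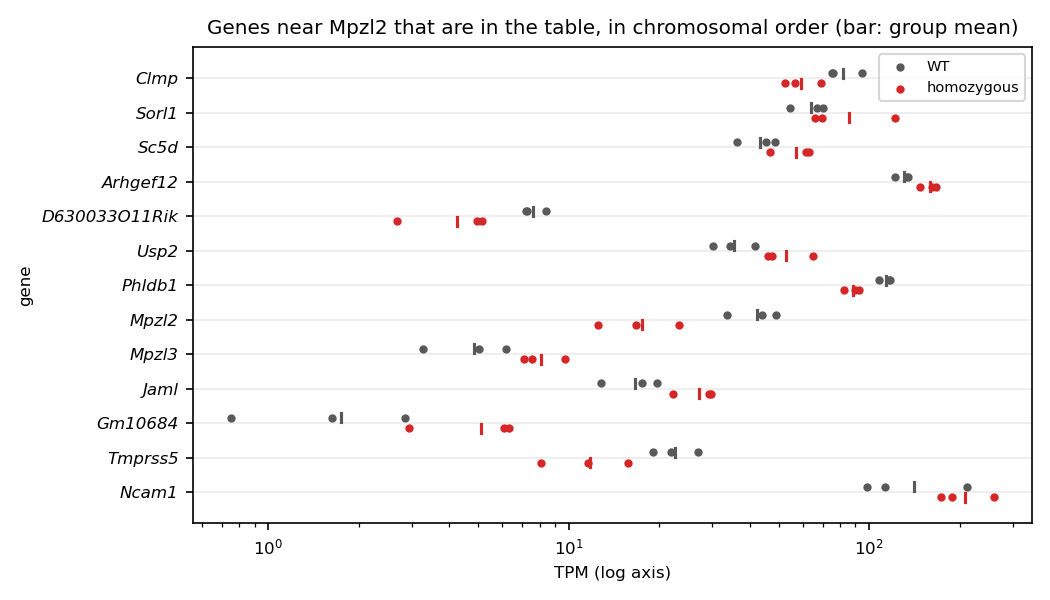
TPM in each library, on a log axis, of the 13 genes near Mpzl2 that are in the table, in the order of the GRCm38 reference, with WT in grey, homozygous in red and a short bar at each group mean. Mpzl2 lies left in the homozygous libraries at 12.5 to 23.2 TPM, and the 3 genes listed after it lie right.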

How the data were processed

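Total RNA was extracted with TRIzol and made into libraries with a SMARTer stranded total RNA kit, per the labels' protocols. The deposited table holds TPM, a unit read here from its values, and per the submitters' processing notes kallisto 0.51.0, DESeq with no version and the build GRCm39 were used. The sources used here do not give a strand setting, so antisense and overlapping genes are uncertain. Sample titles gave the groups, since the labelled genotype of the homozygous libraries rises by 1 from sample to sample. The treated libraries and the second table, whose values for the homozygous libraries differ, were not used here.

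Values of 1 repeated symbol were summed, and a gene was tested where 3 or more libraries had 1 TPM or more. From the deposited TPM, log2 values of TPM + 1 were computed, and limma 3.58.1 in R 4.3.3 was run with its trend option. Its two-sided p-values were adjusted after Benjamini and Hochberg over 1348 genes, and 0.05 was the threshold. All log2 fold changes use that scale, which understates the change of low genes. The fit was tested on simulated data where genes shared the same spread and most did not differ, a setting unlike this table. Alternatives were pseudocounts of 0.1 and 5, no filter, a filter of 5 TPM, median-of-ratios scaling, a replicate block, no trend and 1 library left out. Members, the 57 gene lists and the naming rule were chosen with earlier results of these data known. The rule took Mpzl2, the 15 largest changes past the threshold without overlap in each direction, the 10 most abundant passing genes in each direction, up to 4 passing members per list and direction, and genes near Mpzl2. Other genes were named after their values were seen. Some genes counted in the lists are not reported here by name. Names and gene order came from RefSeq tables for GRCm38, where 1341 of the symbols were found.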

Additional observations from a re-analysis of the deposited data

How the results depend on the processing

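The balance of higher and lower calls turned under median-of-ratios scaling. No gene named by the rule changed the sign of its fold change in the 13 other settings in which it was tested. The rule took mostly genes past the threshold, and several settings leave the fold change as it is, so the kept signs are no separate evidence of stability. The count of higher genes, 241, was 465 under median-of-ratios scaling, 126 with the replicate block and 26 to 227 with 1 library left out, and the count of lower genes, 451, was 216, 217 and 77 to 384. With p-values adjusted over all 21900 protein-coding genes, added after the data were seen, they were 1 and 4. The other settings stayed within 1.5 times, at 176 to 244 higher and 336 to 452 lower. Mpzl2 had a log2 fold change of -1.46 to -1.04 with 1 library left out, and missed the threshold without WT library 3. Same-numbered libraries had correlations of their deviations of 0.05, -0.14 and -0.07, and the other pairs between groups had -0.14 to 0.16. With 3 libraries a group, such values cannot tell whether the replicate numbers pair libraries, so the replicate block is an alternative only. Over the other named genes 2361 values were recomputed: 1656 stayed on their side of the threshold, 694 no longer passed and 11 newly passed, most of the losses with fewer libraries. With 3 libraries a group, the number of libraries limits precision, and the depth is unknown.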

Other observations

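Several gene groups outside the main account had members past the threshold, to be read beside 17.9% higher and 33.5% lower of all tested genes. Of 12 tested transcription factor genes of the inner ear and of patterning 3 rose and 3 fell, against 7 and 2 under median-of-ratios scaling and 0 and 2 by limma without homozygous library 2. Zic2, a zinc finger factor of the dorsal neural tube and meninges, was at 66.0, 77.8 and 98.5 TPM in WT and at 122, 172 and 104 TPM in homozygous libraries (log2 fold change 0.70, limma adjusted p = 0.0408). Twist1, of mesenchyme, rose by 0.71, and Sox4 fell by 0.45. With 1 library left out, Zic2 and Twist1 missed the threshold in 5 of 6 fits and Sox4 in each. Of 13 potassium channel genes 3 fell and 1 rose, but 1 fell and 4 rose under median-of-ratios scaling, and 1 fell and 2 rose without homozygous library 2. Kcnk9, a leak channel of neurons, was at 15.7, 13.4 and 12.7 TPM in WT and at 7.26, 5.68 and 8.8 TPM in homozygous libraries (log2 fold change -0.87, limma adjusted p = 0.0253). Kcnj10, the stria's potassium channel, was at 58.7, 70.7 and 58.2 TPM and at 70.9, 100 and 71.1 TPM and did not pass. Of 5 circadian clock genes Npas2 and Nr1d1 rose by 0.89 and 0.50, and Dbp fell by 0.47. With median-of-ratios scaling 2 rose and 0 fell by limma, and without homozygous library 2 the count was 1 each. Clock genes change with the hour of dissection, which the labels do not give. Of 3 p53 target genes Perp, of desmosomes, rose by 0.68 and Bbc3, of cell death, fell by 1.36 with overlap between groups. By limma 0 of these 3 fell under median-of-ratios scaling, and 0 rose without homozygous library 2. Of 3 muscle genes tested 2 fell, 1 under median-of-ratios scaling. Ttn, the gene of titin, was at 33.4, 38.8 and 34.1 TPM and at 17.9, 16.8 and 18.4 TPM (log2 fold change -0.96, limma adjusted p = 0.00639), and it passed in each fit with 1 library left out. Pvalb, which spiral ganglion neurons also make, fell by 0.58. Of 4 sterol and fatty acid synthesis genes Mvd and Elovl6 fell by 0.68 and 0.57. With median-of-ratios scaling 2 rose and 1 fell, and 1 rose and 2 fell without homozygous library 2.

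Predicted and uncharacterised loci made up 168 of the 1410 symbols. Of 141 tested 43 rose and 43 fell, beside 17.9% and 33.5% of all tested genes. The counts were 64 and 28 under median-of-ratios scaling and 26 and 29 without homozygous library 2. Gm27232 had a listed value of 0 in each WT library and 4.38, 5.47 and 6.27 TPM in homozygous cochlea, and Gm10197 had 0 in WT and 12.2, 3.4 and 19.3 TPM. In all, 20 symbols were listed at 0 in each WT library, 11 of them predicted loci, and 12 in each homozygous library, 9 of them predicted loci. Whether such zeros are absent transcripts or failed estimates cannot be told from TPM.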
